A study of Mus musculus with 144 samples.

Results

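The genes described here encode the proteasome, with its activators and assembly factors, in single microglia of the mouse retina. They are the protein-coding genes whose symbols start with Psma, Psmb, Psmc, Psmd, Psme or Psmg, without the immunoproteasome subunits Psmb8, Psmb9 and Psmb10, and kept where 10% of all cells or more had an FPKM of 1 or higher. Of 46 such genes, 43 passed, among 8695 genes that passed the same detection rule in a table of 55364. The 3 that did not pass were Psmg3, at 6.94% of cells, Psma8, at 2.08%, and Psmb11, at 0% of cells. Psmd9 and Psme4, both at 11.8% of cells, lay just inside. Passing was judged over all cells, and 39 of the 43 would also have passed in the untreated cells alone. Psmc3ip was caught by its symbol only: it encodes a partner of a recombinase in meiosis and is not a part of the proteasome. The other 42 comprised 7 subunits of the alpha ring, 7 of the beta ring, 6 of the ATPase ring, 11 other subunits of the regulatory particle, 5 activators and 6 assembly factors.

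The cells were sorted from retinas of Iba1-EGFP mice, a strain whose green fluorescent reporter follows the macrophage and microglia gene Iba1, and the mice were 16 weeks old. The 3 groups were 54 cells of untreated retinas, 54 cells of retinas 2 days after optic nerve crush, an injury to the axons of retinal ganglion cells, and 36 cells of retinas 4 days after it. Each cell gave 1 library, and each of 3 plates held 18 untreated cells in rows A to C, 18 day 2 cells in rows D to F and 12 day 4 cells in rows G and H, so that time point and plate position cannot be told apart. No animal is named in the labels, so each time point is 1 sample of cells: no test was made, and SDs are over cells. The labels give the plates by number only, so what else differs between plates is not known. Assigned reads per cell ranged from 0.190 to 18.9 M, and their medians over untreated, day 2 and day 4 cells were 4.93, 5.32 and 5.80 M. At least 3 of 10 microglia markers were at 20 FPKM or more in every cell of all 3 groups, and at least 3 of 10 rod photoreceptor markers in 2 untreated cells, 0 day 2 cells and 2 day 4 cells. At least 3 of the border macrophage markers were at that level in 6, 8 and 2 cells in the same order of time points, and at least 3 Mueller glia markers in 9, 7 and 5 cells. The Mueller glia list was Glul, Rlbp1, Slc1a3, Aqp4, Dkk3, Apoe, Vim and Clu. The median number of these at that level per cell was 2 at every time point, so the counts alone do not show Mueller glia among the sorted cells.

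The proteasome is the protease that degrades proteins tagged with ubiquitin. Its core is a stack of rings, with outer rings of alpha subunits that gate the channel and inner rings of beta subunits, of which Psmb5, Psmb6 and Psmb7 carry the constitutive protease sites. The regulatory particle caps the core: its ATPase ring unfolds substrates, and its other subunits bind ubiquitin chains and remove them. The activators Psme1 and Psme2 form an alternative, ubiquitin-independent cap, the chaperones named Psmg help build the core, and Psmd5, Psmd9 and Psmd10 help build the ATPase base. In many mammalian cells the transcription factor Nfe2l1 raises the subunit genes together when proteasome activity is short. In macrophages and microglia the proteasome also degrades inhibitors of NF-kB and supplies peptides for antigen presentation.

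Sequence before the start of transcription is shown for 6 members, chosen after their values were known: Psmb6, Psmb3 and Psmc1, with differences among the highest, Psmb5, a protease subunit with the same promoter motif as Psmb6, Psmd12, a regulatory subunit, and Psmb4, with one of the lowest differences. Each run is 100 bases of RefSeq sequence on the build GRCm38.p6, read 5′ to 3′ on the strand of the gene. It ends at the base before the gene's start in RefSeq or, where that lies further upstream, before its start in the authors' table. Capitals mark TGACNNNGC, the core of the antioxidant response element bound by Nfe2l1 and Nfe2l2, CCAAT, the site of the factor NF-Y, and CGGAAG, a core bound by ETS family factors, each on either strand, so that the last can read CTTCCG.
Psmb6, chr11:70525257-70525356, + strand: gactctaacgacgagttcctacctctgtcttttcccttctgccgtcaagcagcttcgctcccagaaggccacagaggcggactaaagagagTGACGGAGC
Psmb5, chr14:54618023-54618122, - strand: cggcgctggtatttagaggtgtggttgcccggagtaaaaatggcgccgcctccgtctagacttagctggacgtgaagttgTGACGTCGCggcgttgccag
Psmb3, chr11:97703299-97703398, + strand: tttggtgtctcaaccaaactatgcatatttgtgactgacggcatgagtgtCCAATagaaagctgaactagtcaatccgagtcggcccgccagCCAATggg
Psmc1, chr12:100110054-100110153, + strand: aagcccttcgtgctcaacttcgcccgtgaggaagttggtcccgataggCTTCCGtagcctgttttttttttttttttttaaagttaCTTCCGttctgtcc
Psmd12, chr11:107479384-107479483, + strand: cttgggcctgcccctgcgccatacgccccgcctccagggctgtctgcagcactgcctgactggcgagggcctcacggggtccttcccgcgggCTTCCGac
Psmb4, chr3:94886962-94887061, - strand: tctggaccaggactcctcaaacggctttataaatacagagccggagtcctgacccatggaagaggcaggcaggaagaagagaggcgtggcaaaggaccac
Psmb6 and Psmb5 each held 1 antioxidant response element core in these runs, Psmb3 held 2 CCAAT boxes, Psmc1 2 ETS cores and Psmd12 1, and Psmb4 held none of the 3 motifs. The same motifs were searched in the 250 bases before the RefSeq start of the 36 members found in the RefSeq promoter table. The antioxidant response element core was present in 5 of the 36 (13.9%: Psmb6, Psmb5, Psmc6, Psmd12 and Psmd9), against 10.2% of all 27025 promoters and 12.5% of the 5195 promoters of measured genes. CCAAT was present in 13 of the 36 (36.1%), against 34.5% of all promoters and 37% of those of measured genes. CGGAAG was present in 18 of the 36 (50%), against 13.8% of all promoters and 29% of those of measured genes. It was found in 9 of 9 matched subunits of the regulatory particle outside the ATPase ring, in 3 of 5 of the ATPase ring and in 2 of 11 of the core. The 6 runs do not stand for all members. In the 250 bases, Psma5 and Psmc5, with day 4 minus untreated differences of 3.49 and 2.65, held none of the 3 motifs. Psmd8, Psme4 and Psmd9, with low differences of 0.57, 0.57 and 0.68, each held 1 motif. Whether the motifs go with the differences was not tested. The first 2 motifs were chosen for what is known of these genes, the third after these sequences were seen, and a match is a string of letters, not a measured binding site.

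Most members stood higher at day 4 than in untreated cells, in every subcomplex. Differences are of the mean over cells of log2(FPKM + 1), a scale that understates the change of low genes. Day 4 minus untreated was 1 or more in 39 of the 43 members (90.7%), against 21.9% of the 8695 measured genes, and minus 1 or less in 0 members, against 0.437% of measured genes. The median over the 43 members was 1.84 (range 0.57 to 3.57), beside 0.45 over all measured genes. With the 3 genes below the detection rule included, the median over 46 was 1.80, and the number at 1 or more was 39. Within plates the members' median was 1.37, 2.45 and 1.97 in plates 1, 2 and 3, beside 0.31, 0.70 and 0.32 over all measured genes. A total of 38 members were higher at day 4 in each of the 3 plates, against 43.4% of measured genes. The 5 others were Psmb4, Psmd8, Psme4, Psmd12 and Psmg2.

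Day 2 lay nearer to the untreated cells. Day 2 minus untreated had a median of 0.48 over the members (range -0.42 to 1.43), beside 0.21 over all measured genes. It was 1 or more in 8 members (4 without plate 3), against 4.55% of measured genes, and minus 1 or less in 0, against 0.069%. Of the members, 15 were higher at day 2 in each plate, against 28.3% of measured genes, and the plate medians were 0.04, 0.42 and 0.91. Day 4 minus day 2 had a median of 1.54 (range 0.16 to 2.43), beside 0.25 over all measured genes. It was 1 or more in 32 members, against 11.4% of measured genes, minus 1 or less in 0, against 0.92%, and positive in each plate in 33, against 30% of measured genes. In the beta ring the median of day 4 minus day 2 was 2.67, 1.28 and -0.37 in plates 1 to 3. The 3 comparisons share groups of cells, so their values are set side by side only.

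**Figure D1:**
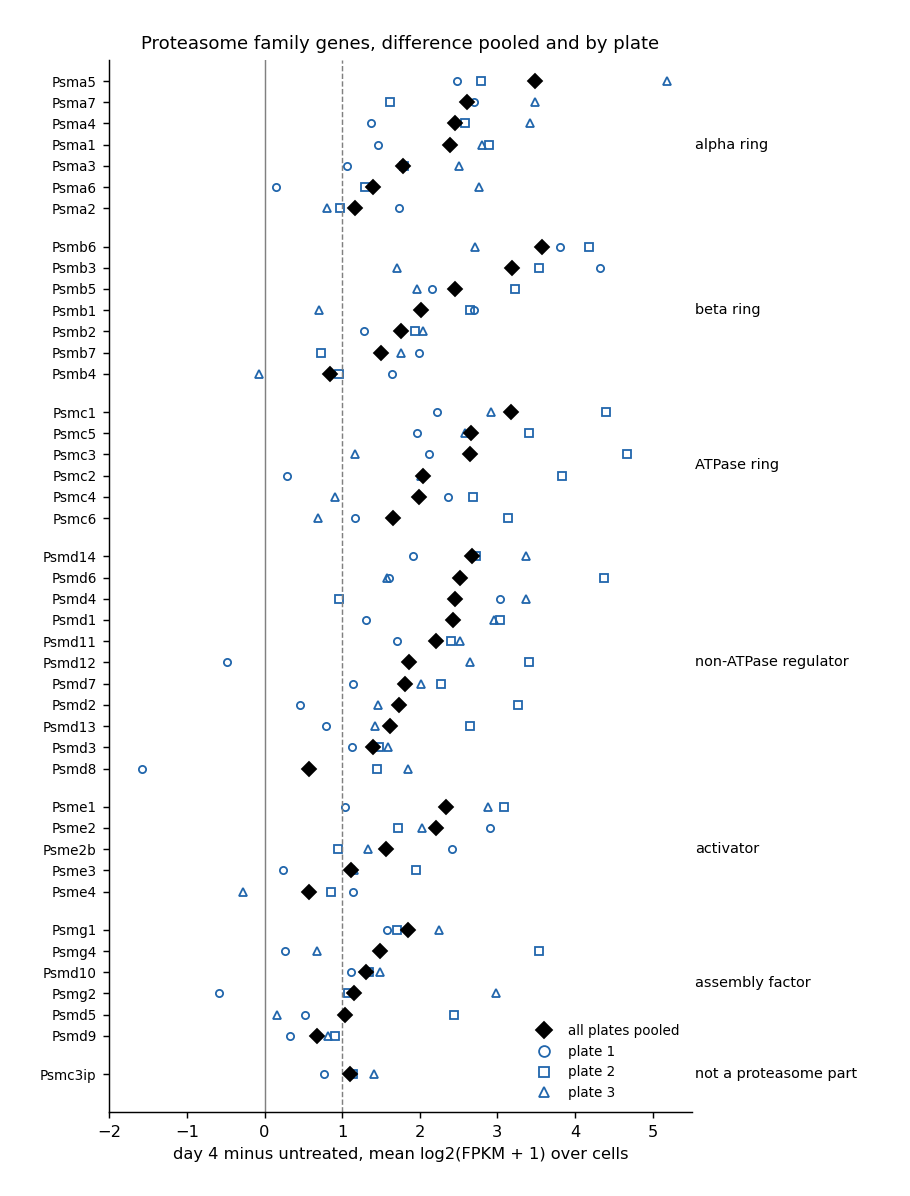
Difference of mean log2(FPKM + 1) over cells, day 4 minus untreated, for each of the 43 members, grouped by role; black diamonds pool the plates, open symbols are the 3 plates, and the dashed line marks a difference of 1. The pooled values run from 0.57 to 3.57, and 38 members have all 3 plate values above 0.

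The 7 alpha subunits, which form the gate of the core, were all higher by at least 1 at day 4 than in untreated cells and higher in each plate, with a median difference of 2.39. Psma5 (ENSMUSG00000068749, chr3:108256926-108279974, + strand) had FPKM of 0 to 1206 with a median of 1.36 in untreated cells, 0.124 to 750 with a median of 3.18 at day 2, and 0.0761 to 1350 with a median of 159 at day 4. It was at 20 FPKM or more in 7 of 54 untreated cells, 19 of 54 day 2 cells and 23 of 36 day 4 cells. The ranges of the 3 groups overlapped, and more day 4 cells were high. The difference of day 4 minus untreated was 3.49 (2.48, 2.79 and 5.19 in plates 1 to 3). For Psma5, 53.5% of the values above 0 were not whole reads, so that part of its reads may be shared with other sequences, and its processed pseudogene Psma5-ps was itself at 1 FPKM or more in 32.6% of cells, so its level is uncertain. Psma7 had medians of 1.41, 11.6 and 112 FPKM in untreated, day 2 and day 4 cells, with 16 of 54, 24 of 54 and 25 of 36 cells at 20 FPKM or more. Its day 4 minus untreated difference was 2.61, and only 4.17% of its values were not whole. Psma4 was at 20 FPKM or more in 4 untreated cells, 14 day 2 cells and 16 day 4 cells, with a difference of 2.46, but 0.73 among cells with 3000 to 4000 detected genes. Psma2 had the smallest difference of the ring, 1.17, from medians of 3.53, 7.81 and 46.9 FPKM in untreated, day 2 and day 4 cells.

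Among the 7 beta subunits the median difference of day 4 minus untreated was 2.01, and 6 of 7 were higher by at least 1. Psmb6 (ENSMUSG00000018286, chr11:70525367-70527858, + strand), the subunit with caspase-like activity, had the largest difference of all members. Its FPKM ran from 0.182 to 1340 with a median of 3.60 in untreated cells, from 0.262 to 1190 with a median of 70.0 at day 2, and from 0 to 1601 with a median of 309 at day 4. It was at 20 FPKM or more in 17 of 54 untreated cells (31.5%, exact 95% interval 19.5% to 45.5%), 30 of 54 day 2 cells (55.6%, 41.4% to 69.1%) and 30 of 36 day 4 cells (83.3%, 67.2% to 93.6%). These intervals hold counting error alone. Each time point is 1 sample of cells, so they are no test between time points. On the log2(FPKM + 1) scale Psmb6 averaged 7.30 ± 2.59 at day 4 (SD, 36 cells) and 3.73 ± 3.13 in untreated cells (SD, 54 cells), a difference of 3.57 that was 3.81, 4.19 and 2.71 in plates 1 to 3. Mean FPKM of Psmb6 was 342 at day 4 and 113 in untreated cells, a ratio of 3.03. Most day 4 cells were thus high for Psmb6, while in untreated cells the greater part lay under 20 FPKM.

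Psmb5 (ENSMUSG00000022193, chr14:54614119-54618022, - strand), the subunit with chymotrypsin-like activity and the target of bortezomib, had medians of 1.35, 2.00 and 62.2 FPKM in untreated, day 2 and day 4 cells, and was at 20 FPKM or more in 9, 16 and 19 cells. Its difference of day 4 minus untreated was 2.45, with 2.16, 3.23 and 1.97 in plates 1 to 3, but 0.16 among cells with 3000 to 4000 detected genes. The trypsin-like Psmb7 (ENSMUSG00000026750, chr2:38588036-38644087, - strand) had a lower FPKM than Psmb5 or Psmb6 at every time point: its medians were 0.153, 0.179 and 0.695 FPKM, 6, 11 and 11 cells were at 20 FPKM or more, and the difference was 1.50, but -0.24 among cells with 3000 to 4000 detected genes. Of the values above 0, 64.0% were not whole for Psmb5 and 59.5% for Psmb7. Exons of Psmb5 overlap Mir686 on the same strand, which had a mean of 163 FPKM, and exons of Psmb7 overlap those of Nek6 on the other strand. Psmb3, a structural subunit, was at 20 FPKM or more in 16 untreated cells, 25 day 2 cells and 28 day 4 cells, with a difference of 3.19 and 66.2% of its values not whole. Psmb4 (ENSMUSG00000005779, chr3:94884093-94886961, - strand), also structural, had the smallest difference of the ring. It was at 20 FPKM or more in 12, 14 and 15 cells of the 3 time points, its difference of day 4 minus untreated was 0.84, and in plate 3 it was -0.07. Mean FPKM of Psmb4 was 70.6 at day 4 and 108 in untreated cells, where 1 cell reached 2356 FPKM. Without that cell, left out after the data were seen, the ratio of day 4 to untreated was 1.08 in place of 0.656. Of the 43 members, Psmb4 and Psma6 were those with a lower mean FPKM at day 4. Psma6 reached 4542 FPKM in 1 untreated cell, and its ratio was 0.602 with that cell and 0.957 without it.

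**Figure D2:**
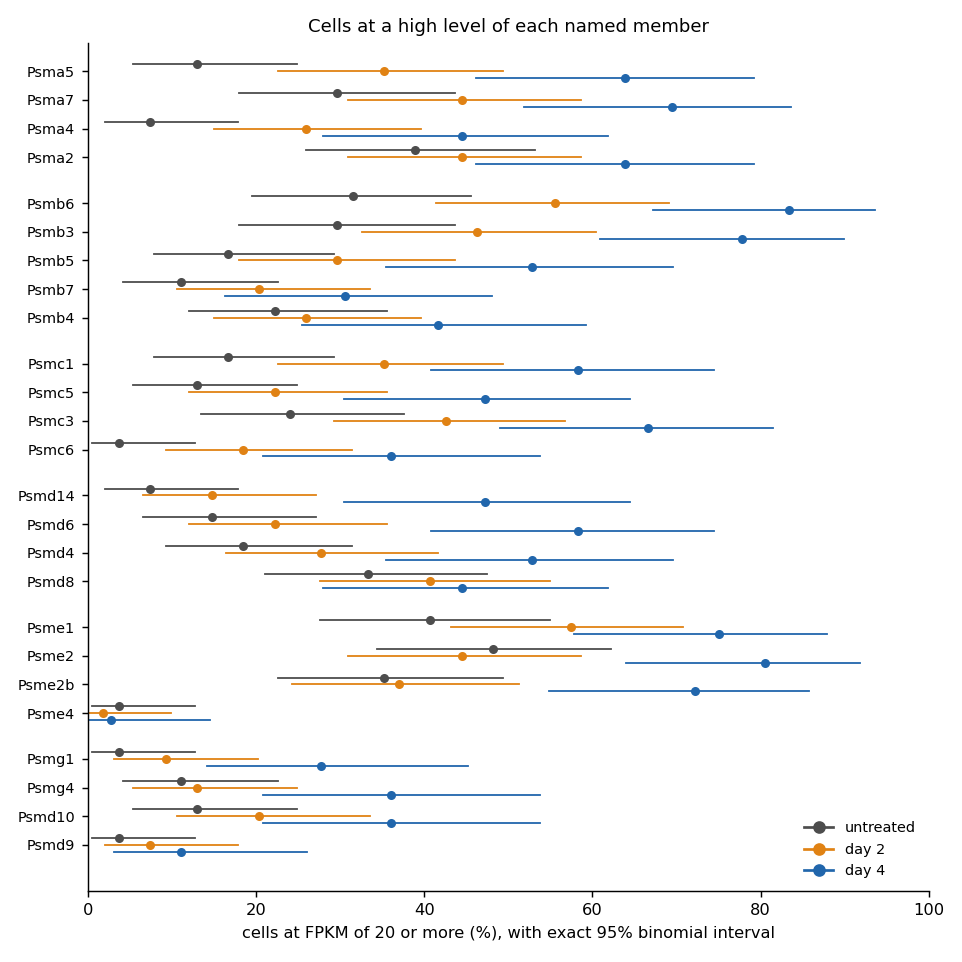
Share of cells at 20 FPKM or more for the 25 named members by time point, untreated above day 2 above day 4 within each gene; points are shares and lines 95% Clopper-Pearson intervals (exact; counting error alone). Psmb6 stood at 31.5% of untreated cells, 55.6% at day 2 and 83.3% at day 4, while Psme4 stood at 3.70%, 1.85% and 2.78%.

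The ATPase ring of the regulatory particle pulls substrates into the core, and all 6 of its subunits were higher by at least 1 at day 4 and higher in each plate, with a median difference of 2.35. Psmc1 (ENSMUSG00000021178, chr12:100110154-100123405, + strand) had FPKM of 0 to 295 with a median of 0.942 in untreated cells, 0 to 456 with a median of 2.75 at day 2 and 0 to 1102 with a median of 90.6 at day 4. It was at 20 FPKM or more in 9 of 54, 19 of 54 and 21 of 36 cells. Its difference of day 4 minus untreated was 3.18 (2.22, 4.40 and 2.92 in plates 1 to 3), but 0.47 among cells with 3000 to 4000 detected genes, and mean FPKM was 179 at day 4 and 29.6 in untreated cells, a ratio of 6.06. Psmc5 had a difference of 2.65 from 7, 12 and 17 cells at 20 FPKM or more, and its ratio of mean FPKM was 1.33 with, and 6.76 without, 1 untreated cell that reached 7854 FPKM. Psmc3 had a difference of 2.65 as well, with medians of 1.57, 6.35 and 110 FPKM in untreated, day 2 and day 4 cells; its exons overlap those of Slc39a13 on the other strand. Psmc6 had the smallest difference of the ring, 1.66, which was 0.063 among cells with 3000 to 4000 detected genes, and was at 20 FPKM or more in 2, 10 and 13 cells.

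The other subunits of the regulatory particle include ubiquitin receptors, scaffolds and a deubiquitinase, and 10 of 11 were higher by at least 1 at day 4 than in untreated cells, with a median of 1.86. Psmd14 (ENSMUSG00000026914, chr2:61711694-61800376, + strand), the enzyme that cuts ubiquitin chains off substrates as they enter, had FPKM of 0 to 230 with a median of 0.403 in untreated cells, 0 to 186 with a median of 0.509 at day 2 and 0.0508 to 384 with a median of 9.66 at day 4. High values were found in 4 of 54, 8 of 54 and 17 of 36 cells. For Psmd14 the medians of untreated and day 2 cells were thus alike and that of day 4 was higher, while the ranges overlapped. Its difference of day 4 minus untreated was 2.67 (1.92, 2.73 and 3.36 in plates 1 to 3), but 0.97 among cells with 3000 to 4000 detected genes, and the ratio of mean FPKM 6.21. Psmd6 had a difference of 2.52 and medians of 0.604, 0.580 and 53.9 FPKM in untreated, day 2 and day 4 cells. Psmd4, a ubiquitin receptor, had a difference of 2.45, which was 0.42 among cells with 3000 to 4000 detected genes, and was at 20 FPKM or more in 10, 15 and 19 cells. Psmd8 (ENSMUSG00000030591, chr7:29174188-29180701, - strand) had the smallest difference of all members, 0.57, and it was -1.58 in plate 1 against 1.46 and 1.84 in plates 2 and 3. In plate 1, Psmd8 was at 20 FPKM or more in 1 of 12 day 4 cells and 5 of 18 untreated cells. Psmd12, a scaffold, was likewise lower at day 4 in plate 1, by a difference of -0.48, and higher by 3.41 and 2.65 in plates 2 and 3.

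Among the 5 activators the values split. Psme1 (ENSMUSG00000022216, chr14:55578123-55581529, + strand) had medians of 5.43, 67.3 and 154 FPKM in untreated, day 2 and day 4 cells, was at 20 FPKM or more in 22, 31 and 27 cells, and had a day 4 minus untreated difference of 2.33. Its partner Psme2 (ENSMUSG00000079197, chr14:55587441-55591113, - strand) had medians of 18.6, 11.7 and 288 FPKM and 26, 24 and 29 high cells. Its difference was 2.21 for day 4 minus untreated but -0.22 for day 2 minus untreated, where Psme1 stood at 1.02, or -0.052 when taken from the log2 of mean FPKM. Psme2b, an intronless copy of Psme2, had a difference of 1.57, but 0.77 among cells with 3000 to 4000 detected genes. Psme2 and Psme2b had 54.5% and 62.9% of values not whole, and levels of near-identical copies cannot be told apart. Psme4, the nuclear activator also called PA200, was at 20 FPKM or more in 2, 1 and 1 cells, and its difference of 0.57 came from low values. Psme3, a nuclear activator also called REG gamma, was at 1 FPKM or more in 18.1% of cells. It was higher at day 4 by 1.11, with 0.24 in plate 1, but by 0.12 with detected genes as a covariate.

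The 6 assembly factors were the lowest in level and had the smallest class median, 1.24, with 5 of 6 higher by at least 1 at day 4 than in untreated cells. Psmg1 (ENSMUSG00000022913, chr16:95979933-95990960, - strand), a chaperone of the alpha ring, had medians of 0.209, 0.204 and 0.536 FPKM in untreated, day 2 and day 4 cells, with maxima of 690, 139 and 1444 FPKM. It was at 20 FPKM or more in 2 of 54, 5 of 54 and 10 of 36 cells, and its difference was 1.84 with 1.58, 1.71 and 2.24 in plates 1 to 3, but -0.13 among cells with 3000 to 4000 detected genes. The medians of Psmg1 lay below 1 FPKM at every time point, and the difference came from a minority of cells. Psmg4, another chaperone of the core, had 6, 7 and 13 high cells and a difference of 1.49, which was 0.26, 3.54 and 0.67 in plates 1 to 3. Psmd10, a chaperone of the ATPase base also known as gankyrin, had 7, 11 and 13 high cells and a difference of 1.31. Psmd9, also a chaperone of the base, was at 20 FPKM or more in 2, 4 and 4 cells, with a difference of 0.68. Psmc3ip, the member that is no proteasome gene, stood at 1.11.

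The differences lay in how many cells were high, and less in the level of the high cells. Over all members and cells, the share of values at 20 FPKM or more was 19.3%, 27.1% and 50.1% in untreated, day 2 and day 4 cells. The mean log2(FPKM + 1) of those high values was 7.25, 6.91 and 7.05. The share of high cells was larger at day 4 than in untreated cells for 42 of the 43 members, the exception being Psme4. The mean among high cells alone was higher at day 4 for 15 of the 43, and its median difference was -0.17. Mean FPKM, which gives most weight to the few highest cells, was at least 2-fold higher at day 4 for 24 members, with a median ratio of 2.25. Shares of measured genes were not computed for these counts, so they describe the members only. The mean difference of day 4 minus untreated was above 0 in 43 of 43 members and in 7119 of the 8695 measured genes.

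Counted per cell, a median of 8.5 of the 43 members were at 20 FPKM or more in untreated cells (range 0 to 25), 11 at day 2 (0 to 33) and 20.5 at day 4 (4 to 37). Of the 14 core subunits the medians were 3, 5 and 8, and of the 17 subunits of the regulatory particle 2, 4 and 8.5. By plate, the median over day 4 cells was 15.5, 29.5 and 20.5 members in plates 1, 2 and 3, against 3, 10 and 9 in untreated cells. At day 2 the plates differed, with medians of 4, 11.5 and 16.5 members. Thinning each cell to 2 M reads, which left out 4 untreated cells, 9 day 2 cells and 0 day 4 cells, gave medians of 8.5, 11 and 20.5 members over the cells that remained. Most cells kept the same count. A level of 20 FPKM stands for many reads even at 2 M, so the thinning could hardly change these counts and says little about depth.

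**Figure D3:**
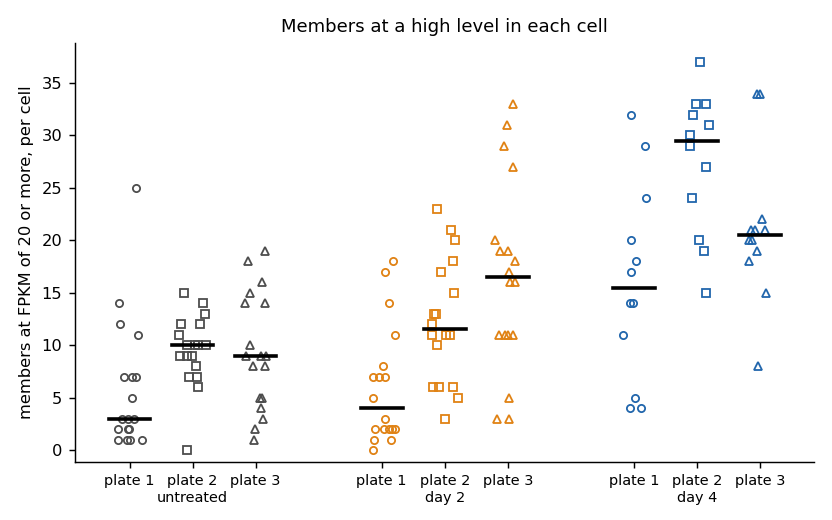
Number of the 43 members at 20 FPKM or more in each cell, by time point and plate; each symbol is 1 cell and black bars are medians. Cells of day 4 have medians of 15.5, 29.5 and 20.5 in plates 1 to 3, and untreated cells 3, 10 and 9.

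The members' share of a cell's assigned reads was about the same before and 2 days after the crush and larger at day 4. It had a median of 0.456% in untreated cells (range 0.0116% to 1.86%), 0.455% at day 2 (0.0287% to 1.41%) and 0.917% at day 4 (0.534% to 2.13%). At day 4 the plate medians were 0.849%, 0.865% and 1.09%, against 0.491%, 0.464% and 0.426% in untreated cells. The groups overlapped: 17 of 54 untreated cells and 20 of 54 day 2 cells were at or above the lowest cell of day 4, and 2 and 5 of them at or above the median of day 4. The core particle took a median of 0.369% of reads at day 4 and 0.205% in untreated cells, and the regulatory particle 0.401% at day 4 and 0.152% in untreated cells. Without the 7 members whose values were mostly not whole reads, the medians were 0.373%, 0.384% and 0.793% in untreated, day 2 and day 4 cells, but the lowest cell of day 4 was then at 0.00987%. In that cell the members' reads came almost entirely from Psme2 and Psmb3, and it had the fewest detected genes of day 4, 1064.

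**Figure D4:**
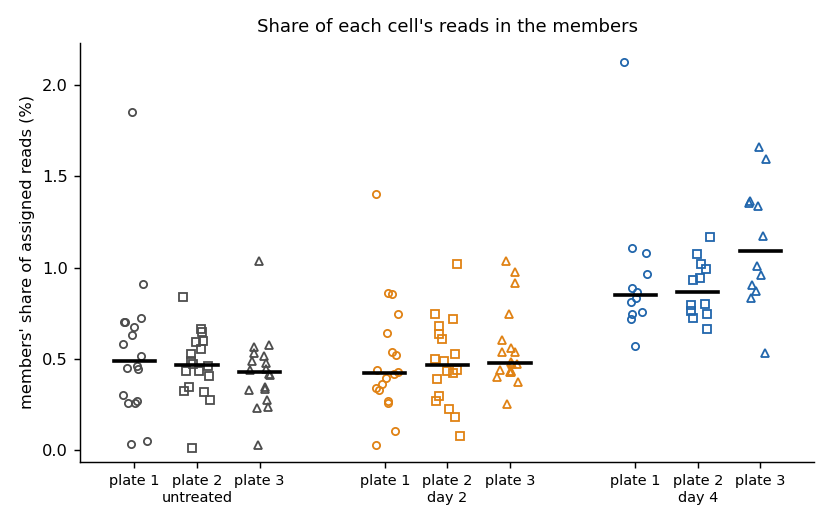
Share of each cell's assigned reads that fell in the 43 members, in percent, by time point and plate; each symbol is 1 cell and black bars are medians. Day 4 medians are 0.849%, 0.865% and 1.09% in plates 1 to 3, and untreated medians 0.491%, 0.464% and 0.426%.

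The number of genes detected per cell moved with these values. Leaving out the members, the median number of genes at 1 FPKM or more was 2777, 3446 and 3940 in untreated, day 2 and day 4 cells. Within a time point, the mean log2(FPKM + 1) of the members correlated with detected genes at r of 0.80, 0.83 and 0.88 in untreated, day 2 and day 4 cells, and with log2 reads at r of 0.04, 0.05 and 0.22. These are descriptions over 54, 54 and 36 cells that share plates. With detected genes as a covariate, the median difference of day 4 minus untreated over the members was 0.93, beside 0.07 over all measured genes. It was above 0 for 43 of 43 members, against 4854 of the 8695 measured genes. It was 1 or more for 18 members, against 6.62% of measured genes. The adjusted median was 1.28 in the alpha ring, 0.93 in the beta ring, 1.42 in the ATPase ring, 0.92 in the rest of the regulatory particle, 0.95 in the activators and 0.62 in the assembly factors. Psma5 had an adjusted difference of 2.57, Psmb6 2.41, Psmb3 2.34 and Psmc1 2.21, while Psmb4 was at 0.19 and Psmd8 at 0.03. Other named members of at least 1 before adjustment were under 1 after it, with 0.93 for Psmb5, 0.998 for Psmb7, 0.95 for Psme2b, 0.79 for Psmc6, 0.74 for Psmg4, 0.49 for Psmd10 and 0.33 for Psma2. The same held for Psmd12 at 0.92, Psmg2 at 0.91, Psmc3ip at 0.61, Psma6 at 0.31 and Psme3 at 0.12.

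Adjusted in the same way, day 2 minus untreated had a median of 0.06 over the members and was 1 or more in 0 of them, against 1.1% of measured genes. Day 4 minus day 2 had an adjusted median of 1.17 and was 1 or more in 25 members, against 5.81% of measured genes. Day 4 cells also had the most high members among cells matched on detected genes, without a model. Among cells with 3000 to 4000 detected genes, a median of 11 members were at 20 FPKM or more in 17 untreated cells (range 7 to 19), 12 in 17 day 2 cells (3 to 21) and 20 in 9 day 4 cells (14 to 24). Among cells with 2000 to 3000 detected genes the medians were 7 in 21 untreated cells, 4.5 in 10 day 2 cells and 15 in 8 day 4 cells. In those with 3000 to 4000 detected genes the day 4 minus untreated difference was 2.94 for Psma5, 3.31 for Psmb6 and 2.28 for Psmb3 but 0.47 for Psmc1. In these cells 24 of the 43 members were at 1 or more, and the share of measured genes was not computed. What part detected genes have in the pooled differences was not tested.

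**Figure D5:**
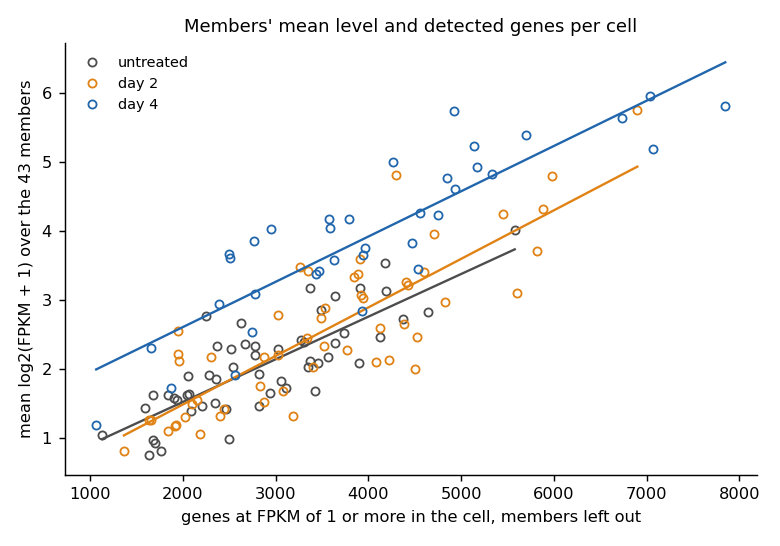
Mean log2(FPKM + 1) over the 43 members against the number of other genes detected in the cell, for all cells; lines are least-squares fits within each time point. The correlation is 0.80, 0.83 and 0.88 in untreated, day 2 and day 4 cells, and the line of day 4 lies above the others.

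Cell by cell, pairs of members showed little correlation once these shared trends were removed. After subtracting the mean of each time point and plate and the linear effect of detected genes, the median correlation over 903 pairs of members was 0.02 across all cells. Over pairs of all measured genes it was about 0. In data this sparse, a low correlation does not show that members varied apart from each other. The highest, 0.92, joined Psme2 and its copy Psme2b, a near-identical sequence, and the next was 0.27. Within the core the median over 91 pairs was 0.05, and within the regulatory particle 0.02 over 136 pairs. The 6 genes outside the families whose residual values were most like the mean of the core were Mrpl47, Cnbp, Filip1l, Pla2g12a, Hprt and Chchd2, with r of 0.32 to 0.40, and values this weak in sparse data are no finding.

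The genes that work with the proteasome had smaller differences in the median. Of 31 listed partners, 25 were measured, and 9 were higher by at least 1 at day 4 than in untreated cells, against 21.9% of measured genes, with a median of 0.78. With detected genes as a covariate the median was 0.32, and 15 of 25 were above 0, against 4854 of the 8695 measured genes. After this adjustment 1 of 25 was at 1 or more, against 6.62% of measured genes. Among those 9 before adjustment were Vcp, the segregase that extracts ubiquitinated proteins (1.65), the proteasome-bound thioredoxin Txnl1 (1.64), Sem1, a small subunit of the regulatory particle (1.56), the ubiquitin receptor Adrm1 (1.27), the inhibitor Psmf1 (1.27), the core maturation factor Pomp (1.05) and the ubiquitin-activating enzyme Uba1 (1.03). Adjusted, Psmf1 was at 1.08, Txnl1 at 0.99, Sem1 at 0.88, Vcp at 0.79, Adrm1 at 0.36, Uba1 at 0.33 and Pomp at 0.31. The ubiquitin gene Ubb was at 11.41 on the log2(FPKM + 1) scale at day 4 and 11.40 in untreated cells. The transcription factors of the antioxidant response element stood at 1.07 at day 4 and 0.23 in untreated cells for Nfe2l1, and at 3.41 and 3.26 for Nfe2l2. Nfe2l1 lay near the floor: its medians were 0.055 FPKM at day 4 and 0 in untreated cells, and 3 of 36 and 0 of 54 cells were at 20 FPKM or more. With detected genes as a covariate, day 4 minus untreated was 0.57 for Nfe2l1, -1.06 for Nfe2l2 and -0.26 for Ubb. Akirin2, which carries proteasomes into the nucleus, had a difference of -0.40, and of -0.98 when adjusted.

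The immunoproteasome subunits take the places of the constitutive protease subunits: Psmb8 replaces Psmb5, Psmb9 replaces Psmb6 and Psmb10 replaces Psmb7. Their differences of day 4 minus untreated were 0.70 for Psmb8, 0.78 for Psmb9 and 1.53 for Psmb10, and with detected genes as a covariate -0.27, -0.12 and 0.76. Psmb8 was at 20 FPKM or more in 28 untreated cells, 35 day 2 cells and 25 day 4 cells, with 51.4% of its values not whole. Psmb9 was lower at day 4 in plate 1, by a difference of -0.94, and higher in the other plates. For the constitutive subunits they replace, the adjusted differences were 0.93 for Psmb5, 2.41 for Psmb6 and 0.998 for Psmb7. Whether the constitutive and inducible subunits differ in their change was not tested.

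For comparison with another large complex, the 8 measured subunits of the CCT chaperonin, which folds actin and tubulin, had a median difference of 2.31 for day 4 minus untreated, and all 8 were higher by at least 1. The 77 measured cytosolic ribosomal protein genes had a median of 0.97, with 37 higher by at least 1. Of these 77 genes, 70 had over 50% of values not whole, so their levels are uncertain. The members' median of 1.84 thus lay below that of CCT and above that of the ribosome, without a test of either difference. With detected genes as a covariate the medians were 1.52 for CCT, 0.93 for the members and 0.58 for the ribosome.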

How the data were processed

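Each sorted cell was lysed, its cDNA amplified in the same tube and the library made with Nextera XT, per the labels' protocols. The submitters' processing notes name STAR 2.7.2b, featureCounts 1.6.1, cutadapt 1.16, Trimmomatic 0.36 and Trim Galore 0.4.4, and the builds GRCm38.p6 and mm10; not given in the sources used here is how each was set. The deposited table of the authors gives FPKM for 55364 genes in all cells, and FPKM times gene length summed to 1e+09 per cell, so that each value is relative to the cell's other reads. Reads per cell were recovered from the most frequent product of FPKM and length. Within 0.01 read, a median of 59.4% of values above 0 in a cell were whole (49.1% to 69.1%), so no count model was used. A gene with over 50% of values not whole was called uncertain (7 members).

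Means over cells of log2(FPKM + 1) were compared pooled, within each of 3 plates and with detected genes as a least-squares covariate, over all measured genes. A size rule of 1 replaced a test, because each time point is 1 sample of cells. The members and lists were chosen with earlier results of these data known. By a written rule, in each role the 3 members with the highest and the 1 with the lowest difference were named, with Psmb5, Psmb6 and Psmb7; Psma6, Psmd12, Psme3, Psmg2 and Psmc3ip were named after their values were seen. The level of 20 FPKM was set after seeing the data. Shares have exact Clopper-Pearson 95% intervals, which hold counting error alone and not differences between animals. Coordinates are those of the deposited table. Exon overlaps were taken from its exon positions, and strand was not used in counting as far as the sources say. Besides Psmb5, Psmb7 and Psmc3, exons of Psma4, Psma5, Psmd1, Psmd3, Psmd13, Psme1, Psme2b and Psmc3ip also overlap another gene. Of these, Psma4 had 42.9% and Psme1 49.0% of values not whole. The calculations were checked on simulated cells drawn gene by gene from the untreated cells. That check did not hold the differences in detected genes seen between the real groups. The recovery of reads was checked on whole counts only. The software was Python 3.11.15, numpy 2.4.6, pandas 2.3.3, scipy 1.17.1 and matplotlib 3.10.9. Other pseudocounts, filters, covariates, summaries and subsets of cells were tried as alternatives. Some partner genes are not reported here by name.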

Additional observations from a re-analysis of the deposited data

How the results depend on the processing

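Medians over the members were compared between settings against their SD over the 3 plates, and counts against a 1.5-fold margin. Shares of measured genes were computed only for the main setting and with detected genes as a covariate. With a pseudocount of 10 the median of day 4 minus untreated was 1.02 with 24 members at 1 or more, that of day 4 minus day 2 was 0.89 with 18 members, and 0 members remained at day 2 minus untreated. With detected genes as a covariate the median of day 4 minus untreated was 0.93 with 18 members, and 0 members at day 2; with plate as well they were 1.06 and 23, and 0.033 and 0 at day 2. From log2 of mean FPKM plus 1 they were 1.15 and 23 for day 4 minus untreated, and 0.96 and 20 for day 4 minus day 2. Medians over cells gave 3.41 for day 4 minus untreated and 2.16 for day 4 minus day 2. In cells with 3000 to 4000 detected genes (9 of day 4, 17 of day 2 and 17 untreated) the median of day 4 minus untreated was 1.11 with 24 members. For day 2 minus untreated, 4 members were at 1 or more without plate 3, and 3 after subtracting the median of all measured genes. All other settings stayed within these margins, and no median changed sign. Of 375 values of the 25 named members for day 4 minus untreated (15 settings each), 369 kept their sign, and of 375 for day 2 minus untreated 336 did. Among differences of at least 1, those that changed sign were Psmb7 (-0.24), Psmg1 (-0.13) and, at day 2, Psmc6 (-0.032) in cells with 3000 to 4000 detected genes, and Psme1 at day 2 (-0.052) from mean FPKM. Leaving out the highest untreated cell, chosen after seeing the data, moved the ratio of mean FPKM as given above for Psma6, Psmb4 and Psmc5. The cause of these shifts was not tested. Depth limits values near 1 FPKM in the 3 cells under 1 M reads; leaving them out gave a median of 1.84 for day 4 minus untreated.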
